A study of Mus musculus with 4 samples.

Results

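Gabrb1, Gabrb2, Gabrg1, Gabrg3, Gabbr1 and Gabbr2 encode subunits of the receptors for GABA, the main inhibitory transmitter of the brain. They were chosen by name as GABA-A beta, GABA-A gamma and GABA-B subunits, and they are 6 of the 43348 genes in the count tables. The remaining beta and gamma subunits were not analysed here.

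GABA-A receptors are pentameric chloride channels, most often built from alpha, beta and gamma subunits, with the GABA sites between beta and alpha subunits and the benzodiazepine site between alpha and gamma. GABA-B receptors are G-protein-coupled heteromers in which the Gabbr1 product binds GABA, while the Gabbr2 product brings the complex to the cell surface and couples it to G proteins that act on potassium and calcium channels. Interneurons both release GABA and carry these receptors, so the subunits they make set how they are themselves inhibited.

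The data are single-cell RNA counts from frontal cortex and hippocampus of mice at postnatal days 18 to 20. All mice carried Nkx2.1-Cre, which is active in progenitors of the medial ganglionic eminence, and the Ai14 reporter, and TdTomato-positive cells were sorted. WT mice were Grin1 wt/wt and Grin1-null mice were Grin1 fl/fl littermates, so the null cells lost the obligatory NMDA receptor subunit from the onset of Cre. Mice of both sexes were used, and 3 to 4 animals were processed on consecutive days.

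There were 3 WT and 2 Grin1-null libraries from each region, 10 in all. Replicates 2 and 3 used version 3 of the 10x chemistry and replicate 1 of each group used version 2, so chemistry and replicate number go together. The WT cortical libraries held 9306756, 14212183 and 28057207 UMIs (replicates 1, 2 and 3), and the WT hippocampal libraries held 10555408, 8782181 and 20639002. The Grin1-null libraries held 1488601 and 25688337 UMIs in cortex and 3856745 and 47338167 in hippocampus. After filtering, 26201 of 26987 cells stayed. Replicate 1 of the null cortex gave only 177 of them and replicate 1 of the null hippocampus 401. Replicate 2 of the WT hippocampus was the shallowest, with a median of 1479 UMIs per cell against 9763 in replicate 2 of the null hippocampus. Any pair of libraries shared at most 12 cell barcodes, and at most 0.565% of the smaller library.

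The 6 genes were kept out of the genes used for clustering, so the cell types were not built from them. Of 34 clusters, 30 were named from marker genes and 4, with 1146 cells, were not. The tests used 3 classes of interneurons. The SST class held 6683 cells, among them 823 TH cells and 421 cells of the Chodl subtype, which marks long-range projecting Nos1 cells. The PVALB class held 2199 cells, with 400 of the Pthlh subtype and 114 of the Crabp1 subtype, and the class of neurogliaform cells (NGFC) held 2177. The sorted cells also included oligodendrocytes (7817), committed oligodendrocyte precursors (2836), OPCs (1376), glutamatergic neurons (989), astrocytes (429), microglia (264), choroid plexus cells (190) and endothelial cells (95). Replicate 1 of the null cortex had 3 neurogliaform cells and gave no NGFC sum, so the cortical null NGFC values rest on 1 library.

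Grin1 itself was lower in every null library. In the SST class it stood at 152, 254 and 233 CPM (UMIs of the gene per 1000000 UMIs) in WT cortex, against 36.4 and 28.0 in null cortex. In WT hippocampus it stood at 119.96, 175 and 157 CPM, against 23.7 and 22.0 in null hippocampus. No null library reached the lowest WT library in that class. In the PVALB class the values were 113, 214 and 179 against 43.1 and 23.1 CPM in cortex, and 102, 167 and 129 against 21.3 and 16.8 CPM in hippocampus. In the NGFC class they were 114, 182 and 164 against 36.3 CPM in cortex, and 116, 111 and 134 against 29.7 and 15.5 CPM in hippocampus. The WT and null libraries did not overlap in any class or region. The fitted log2 change lay between -2.89 and -2.10, and the adjusted p was lowest in the PVALB class of cortex, at 0.02998, so Grin1 did not pass the 0.01 threshold used here in any class.

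The levels below are in CPM, as means over the WT libraries with at least 10 cells of a type, with the SD. There were 6 such libraries, except 5 for TH and glutamatergic cells, 4 for the Chodl subtype and microglia, and 3 for the Crabp1 subtype and choroid plexus. Endothelial cells had 1 such library and are left out. The SST and PVALB types in these levels leave out their subtypes and TH cells.

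Gabrb1, which supplies a beta subunit, was highest in astrocytes, at 146 ± 99.1 CPM, and next in the Chodl subtype, at 63.8 ± 9.11. Then came glutamatergic neurons at 51.4 ± 44.1 CPM, choroid plexus at 39.8 ± 61.8, SST cells at 33.1 ± 5.67, TH cells at 29.4 ± 5.38, PVALB cells at 21.0 ± 5.61 and the Crabp1 subtype at 18.9 ± 13.1. Neurogliaform cells held 13.7 ± 5.54 CPM of Gabrb1, the Pthlh subtype 8.76 ± 7.85, OPCs 6.94 ± 6.64, microglia 2.19 ± 4.39, committed precursors 0.855 ± 0.977 and oligodendrocytes 0.516 ± 0.340. No neighbours in this order were separated beyond the range of their libraries, and astrocytes ran from 28.1 to 315 CPM. The Chodl subtype, at 53.7 to 75.2 CPM, nevertheless lay above every SST library, which ran from 25.7 to 39.4. Within the SST type the clusters differed, from 16.8 CPM of Gabrb1 in cluster 3 to 48.7 in cluster 8 of the pooled WT cells.

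Gabrb2, the other beta subunit gene, was ordered differently. It was highest in neurogliaform cells, at 60.6 ± 51.7 CPM, followed by PVALB cells at 41.95 ± 34.7, TH cells at 39.9 ± 26.9, the Pthlh subtype at 29.6 ± 28.7, the Crabp1 subtype at 27.3 ± 12.4 and SST cells at 23.1 ± 20.2. Below these were glutamatergic neurons at 11.7 ± 9.01 CPM, OPCs at 6.42 ± 7.55, the Chodl subtype at 2.80 ± 2.85, astrocytes at 0.936 ± 2.29, oligodendrocytes at 0.490 ± 0.642 and committed precursors at 0.272 ± 0.427. Microglia and choroid plexus held no Gabrb2 UMI. No neighbours were separated beyond the range of their libraries. The spread followed the replicate number in every class, with replicate 1 lowest and replicate 2 highest in both regions of WT. In the NGFC class Gabrb2 was 16.3, 91.0 and 57.9 CPM in cortex and 10.3, 147 and 40.4 CPM in hippocampus. Replicates 2 and 3 used the same version of the chemistry, while replicate 1 differs from both in chemistry and animals, which cannot be told apart.

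Gabrg1, a gamma subunit gene, was high in a small set of types. The Chodl subtype held 102 ± 52.9 CPM, astrocytes 96.0 ± 47.5 and TH cells 87.7 ± 15.5. All TH libraries, at 73.5 to 110.1 CPM, lay above all libraries of the next type, OPCs, at 36.2 ± 12.5. SST cells followed with 23.7 ± 27.2 CPM of Gabrg1, glutamatergic neurons with 14.2 ± 19.3, microglia with 9.99 ± 20.0, the Crabp1 subtype with 6.73 ± 11.7, committed precursors with 4.61 ± 3.81, the Pthlh subtype with 4.43 ± 5.55, PVALB cells with 4.41 ± 3.24, neurogliaform cells with 4.06 ± 4.58, choroid plexus with 2.45 ± 4.25 and oligodendrocytes with 0.716 ± 0.440. Apart from the step between TH cells and OPCs, no neighbours were separated. The Chodl subtype was Gabrg1-rich in every library that held enough of its cells. It stood at 76.7, 111 and 49.0 CPM in WT cortex, 172 in replicate 2 of WT hippocampus, 76.6 in replicate 2 of null cortex and 126 in replicate 2 of null hippocampus.

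Gabrg3, the other gamma subunit gene measured, was highest in neurogliaform cells, at 299 ± 74.7 CPM. The Pthlh subtype followed with 214 ± 64.0 CPM, TH cells with 154 ± 28.1, the Crabp1 subtype with 137 ± 40.8 and PVALB cells with 131 ± 30.2. Every PVALB library, at 98.3 to 176 CPM of Gabrg3, lay above every SST library, and SST cells held 57.4 ± 7.22. Glutamatergic neurons held 52.9 ± 22.7 CPM, OPCs 14.3 ± 8.54, committed precursors 4.38 ± 4.39, microglia 2.19 ± 4.39, astrocytes 2.13 ± 3.30, the Chodl subtype 1.65 ± 1.94, choroid plexus 1.402 ± 2.43 and oligodendrocytes 0.979 ± 1.23. The step between PVALB and SST cells was the only one between neighbours that exceeded the range of the libraries. TH cells were high in both gamma genes, whereas the Chodl subtype was high in Gabrg1 and near the level of glia in Gabrg3. The TH name depends on the clustering. It covered 823 cells here, but 1472 at resolution 0.6 and 786 and 705 in 2 clusters at resolution 1.4, where cells with Crh and Tac2 as leading genes also took it. These are cluster 15 here, counted as SST, with 7.89 CPM of Gabrg1 and 118 of Gabrg3 in pooled WT cells.

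Gabbr1, the GABA-binding subunit of the GABA-B receptor, was broadly present. SST cells held 565 ± 81.7 CPM, the Chodl subtype 550.4 ± 119.9, the Pthlh subtype 505 ± 54.7, neurogliaform cells 481 ± 68.2, the Crabp1 subtype 469.7 ± 14.1, TH cells 467 ± 36.5, glutamatergic neurons 436 ± 129, astrocytes 423 ± 184 and PVALB cells 386 ± 57.8. Every library of PVALB cells, at 288 to 444 CPM of Gabbr1, lay above every library of oligodendrocytes, at 182 to 285. Oligodendrocytes averaged 233 ± 41.3 CPM, OPCs 186 ± 66.3, choroid plexus 73.1 ± 34.6, committed precursors 69.2 ± 16.0 and microglia 55.0 ± 34.5. No other neighbours were separated. Committed precursors, at 50.2 to 87.6 CPM, lay below all libraries of mature oligodendrocytes. Among the oligodendrocyte clusters, pooled WT cells ranged from 97.8 CPM in cluster 14 to 296 in cluster 0, and null cells of the same clusters stood at 120.02 and 339.

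Gabbr2, the partner that couples the GABA-B receptor to G proteins, had its highest levels in neurons. It was highest in neurogliaform cells, at 354 ± 121 CPM, then PVALB cells at 251 ± 72.1, the Pthlh subtype at 209 ± 56.3, TH cells at 199.7 ± 24.1, SST cells at 178 ± 55.1, glutamatergic neurons at 166 ± 35.4 and the Crabp1 subtype at 136 ± 77.4. Astrocytes held 53.4 ± 25.3 CPM of Gabbr2, OPCs 35.8 ± 13.1, the Chodl subtype 22.0 ± 10.2, committed precursors 7.73 ± 8.15, oligodendrocytes 2.63 ± 1.86, microglia 2.19 ± 4.39 and choroid plexus 1.05 ± 1.82. No neighbours were separated beyond the range of their libraries. The Chodl subtype, at 10.2 to 32.2 CPM, lay below every library of SST cells, which ran from 84.5 to 229.6. Mature oligodendrocytes therefore held Gabbr1 with little Gabbr2, and the Chodl subtype combined a high Gabbr1 level with a low Gabbr2 level for an interneuron.

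**Figure D1:**
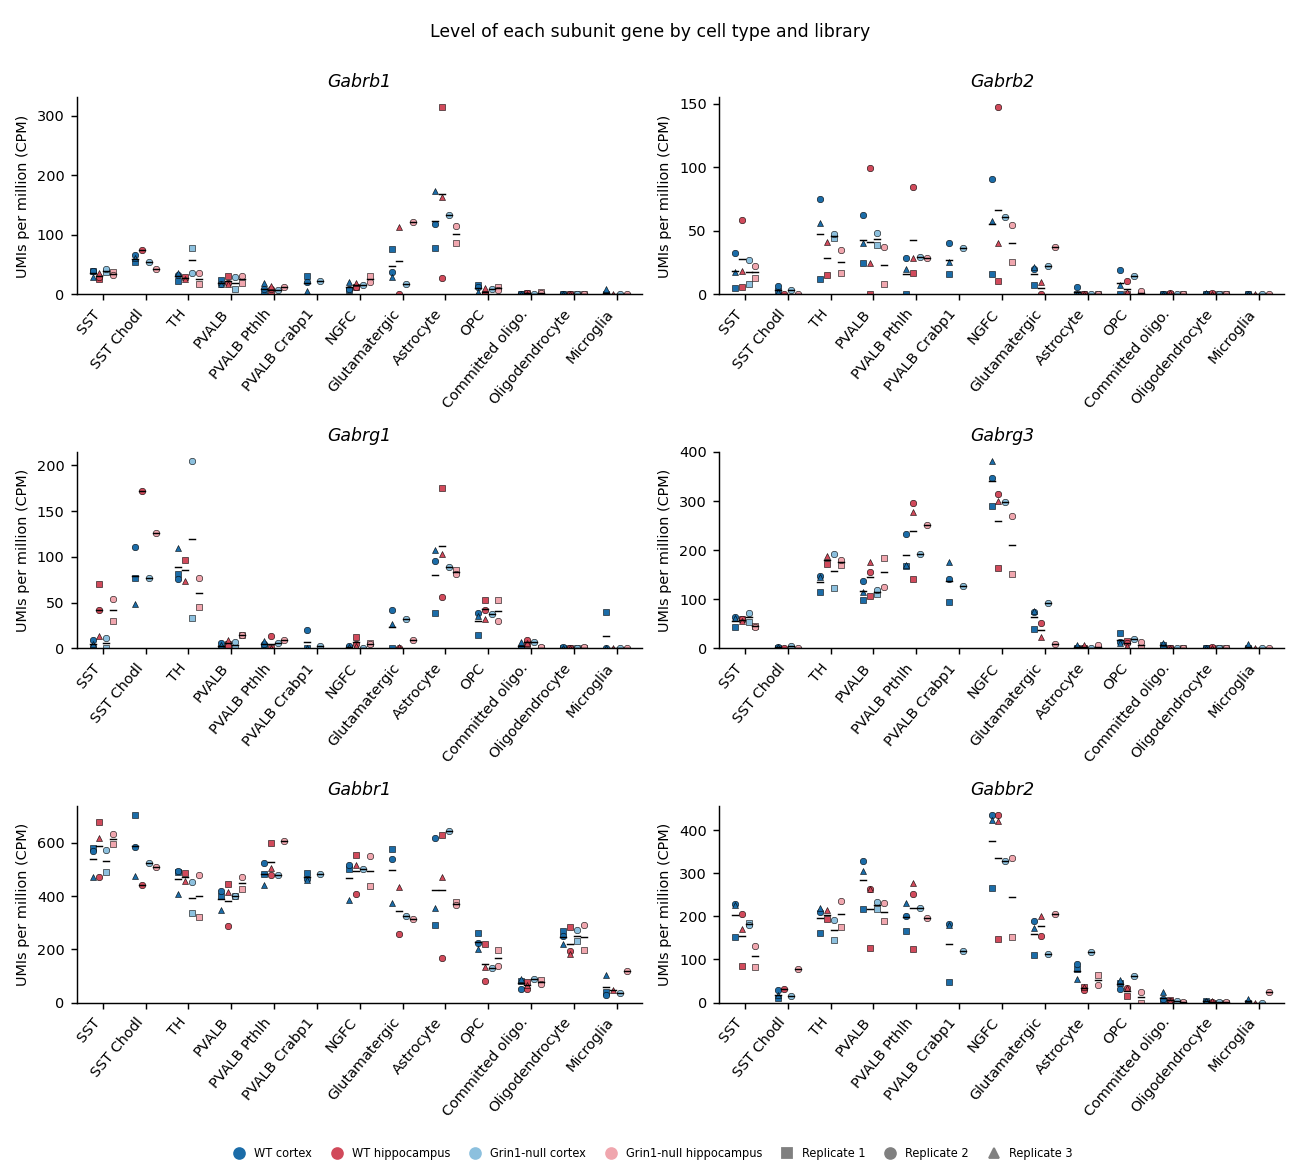
Level of each gene (CPM, vertical axis, linear from 0) in each cell type, with 1 point per library of at least 10 cells, coloured by region and genotype and shaped by replicate, and a bar at the mean of each group. Gabrg1 stands at 49.0 to 172 in the Chodl libraries of WT, where Gabrg3 lies at or below 3.76, and Gabbr2 is near 0 in oligodendrocytes while Gabbr1 is at 182 to 285 there.

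The share of cells with at least 1 UMI of a gene depends on depth, so each share is followed by that after thinning each cell to 1000 UMIs. Median depths in WT were 10132 UMIs in the Chodl subtype, 7120.0 in PVALB cells, 6737.5 in TH cells, 5894 in SST cells, 3456.5 in neurogliaform cells, 2146 in astrocytes and 1495 in OPCs. Oligodendrocytes, at a median of 3499 UMIs, and microglia, at 1096, served as the types that should lack the GABA-A genes. Gabrb1 was seen in 44.8% of Chodl cells (4.08% thinned), 29.4% of astrocytes (12.8%), 17.4% of SST cells (3.29%), 12.2% of PVALB cells (1.57%) and 7.03% of neurogliaform cells (1.77%), against 0.171% of oligodendrocytes (0.0214%) and 0.478% of microglia (0). Gabrb2 was seen in 26.5% of PVALB cells (4.85% thinned), 23.2% of neurogliaform cells (7.84%), 11.7% of SST cells (2.87%) and 4.40% of Chodl cells (0.408%), against 0.171% of oligodendrocytes (0.0642%). None of 209 microglia held it (exact 95% upper limit 1.75%). Both beta genes were thus more often seen in all 3 classes than in oligodendrocytes, also at equal depth. With 115 microglia left after thinning, a share of 0 has an exact 95% upper limit of 3.16%.

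Gabrg1 was seen in 49.2% of Chodl cells (7.35% thinned), 32.6% of TH cells (7.59%), 20.6% of astrocytes (10.0%), 6.49% of OPCs (3.92%) and 6.06% of SST cells (1.58%). In PVALB cells its share was 2.22% (0.522% thinned) and in neurogliaform cells 1.87% (0.843%), against 0.305% of oligodendrocytes (0.150%) and 0.478% of microglia (0.870%). Few UMIs lie behind the NGFC share, namely 0, 1 and 1 in the WT cortical libraries and 10, 5 and 9 in the hippocampal ones, and 1 microglial cell held Gabrg1. A difference from background in Gabrg1 was not tested for neurogliaform and PVALB cells. Gabrg3 was seen in 57.3% of neurogliaform cells (25.3% thinned), 56.7% of TH cells (15.6%), 53.4% of PVALB cells (12.0%) and 25.1% of SST cells (6.31%). In the Chodl subtype Gabrg3 was seen in 3.20% of cells and in none of 245 after thinning (exact 95% upper limit 1.49%), against 0.286% of oligodendrocytes (0.107%).

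Gabbr1 was seen in 94.4% of Chodl cells (45.7% thinned), 85.3% of PVALB cells (31.2%), 82.9% of SST cells (40.8%), 73.2% of neurogliaform cells (38.4%), 56.5% of astrocytes (36.0%) and 22.8% of OPCs (14.6%). Oligodendrocytes held Gabbr1 in 52.0% of cells (21.0% thinned) and microglia in 8.13% (6.09%), so the oligodendrocyte share exceeded that of microglia also at equal depth. Gabbr2 was seen in 79.7% of PVALB cells (26.3% thinned), 63.8% of neurogliaform cells (30.7%), 60.7% of SST cells (18.9%), 17.6% of Chodl cells (4.08%) and 11.8% of astrocytes (6.80%). In oligodendrocytes Gabbr2 was seen in 0.648% of cells (0.0856% thinned) and in microglia in 0.478% (0).

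Single cells showed the same partner patterns. Of WT oligodendrocytes, 51.4% held Gabbr1 without Gabbr2 and 0.553% held both. Of WT Chodl cells, 77.6% held Gabbr1 without Gabbr2 and 16.8% held both, whereas both GABA-B genes were found together in 71.3% of PVALB cells, 66.9% of TH cells, 55.2% of SST cells and 51.0% of neurogliaform cells. For the gamma genes, 18.9% of TH cells held Gabrg1 and Gabrg3 together, 37.8% held Gabrg3 alone and 13.7% Gabrg1 alone, while 47.6% of Chodl cells held Gabrg1 alone. For the beta genes, 42.4% of Chodl cells held Gabrb1 alone and 21.4% of neurogliaform cells held Gabrb2 alone. A cell counted for a single gene may hold the partner below detection.

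The balance within each pair was also taken as a share of the UMIs of both genes, which does not depend on library scaling. Gabrg1 made up at least 94.1% of the gamma pair in every Chodl library and at least 91.7% in astrocytes, 21.1 to 51.5% in TH cells, 0 to 10.4% in PVALB cells and 0 to 7.30% in neurogliaform cells. Chodl cells and astrocytes leaned to Gabrg1 in every library, and PVALB and neurogliaform cells to Gabrg3. Gabrb1 made up at least 90.7% of the beta pair in the Chodl subtype, at least 95.5% in astrocytes, 33.3 to 89.0% in SST cells and 8.19 to 55.6% in neurogliaform cells. Gabbr1 made up at least 97.9% of the GABA-B pair in oligodendrocytes, 86.9 to 98.6% in the Chodl subtype, 67.6 to 88.9% in SST cells and 47.6 to 79.1% in neurogliaform cells.

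**Figure D2:**
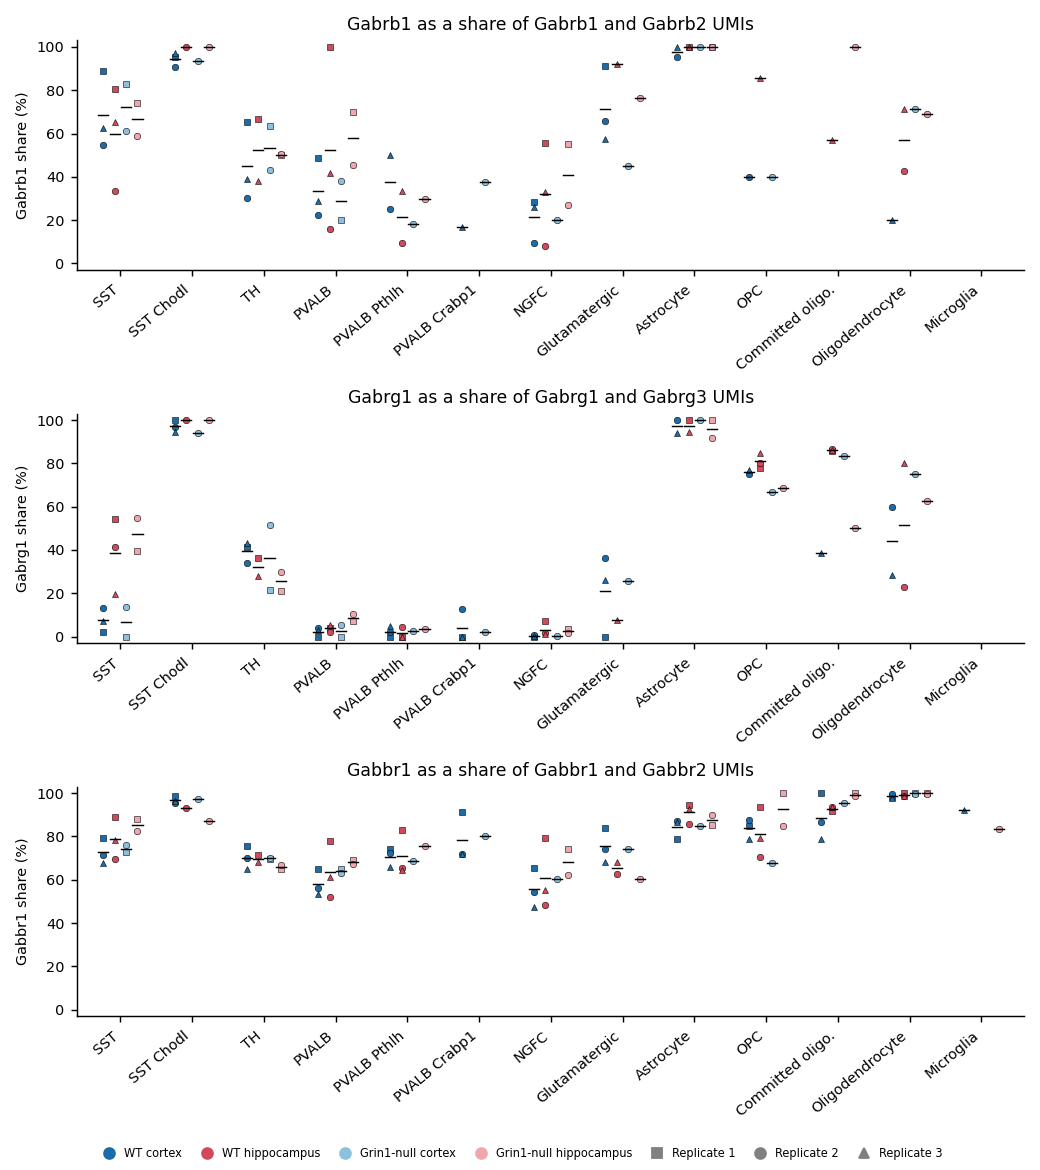
Share of the first gene of each pair in the UMIs of both (percent, vertical axis from 0 to 100), by cell type, with 1 point per library and a bar at the mean of each group. In SST cells of WT the Gabrg1 share is 54.2, 41.3 and 19.6% in hippocampus and 2.22, 13.4 and 7.35% in cortex, and Gabbr1 is at 97.9% or more in oligodendrocytes.

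Pair shares of the 3 classes were compared between regions in WT and between genotypes in each region, 27 comparisons in all, of which 24 had enough libraries for a two-sided exact permutation test over libraries. The smallest p these designs allow is 0.1 for 3 against 3 libraries and 0.2 for 3 against 2, and every adjusted p was 1. Groups did not overlap in 3 of the 24. Full separation is the outcome with the smallest p. By chance it has a probability of 0.1 with 3 against 3 libraries and 0.2 with 3 against 2. The 3 cases are near those shares. The Gabrg1 share of the NGFC class was 7.30, 1.47 and 0.955% in WT hippocampus and 0, 0.667 and 0.408% in WT cortex, with means of 3.24 and 0.358% (exact p = 0.1). Their difference ran from 0.857 to 4.03 percentage points with 1 library left out. The Gabbr1 share of the PVALB class was 69.0 and 68.7% in null cortex and 67.1, 58.8 and 54.4% in WT cortex, with means of 68.8 and 60.1% (exact p = 0.2). The Gabrg1 share of the PVALB class was 6.38 and 6.91% in null hippocampus and 2.38, 3.28 and 4.05% in WT hippocampus, with means of 6.65 and 3.24% (exact p = 0.2). In each of these the libraries of the group named first were all higher, and the Gabrg1 shares rest on few UMIs. The region tests did not pair same-numbered libraries. Within replicates 1, 2 and 3, the Gabrb1 share of the SST class was lower in hippocampus each time (78.1, 35.0 and 59.8% against 87.0, 58.4 and 60.9%), and the Gabrg1 shares of the SST and NGFC classes were higher there each time.

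The class contrasts ask which subunits set the main interneuron classes apart. Between PVALB and SST cells of WT, each pair split. Gabrb1, Gabrg1 and Gabbr1 were higher in SST cells, and Gabrb2, Gabrg3 and Gabbr2 were higher in PVALB cells. All 6 genes passed between PVALB and SST cells, where 22.5% of all genes tested passed, 5 between neurogliaform and SST cells (24.2% of all) and 3 between neurogliaform and PVALB cells (23.5%). The first background count, 2290 genes, was 1499 without replicate 2 of WT cortex and 1417 without replicate 3. A gene was called at an adjusted p under 0.01 in edgeR and a change of at least 0.1 on the natural log scale. Below, ± after a log2 change is its standard error, and class levels are the lowest, median and highest of the 6 WT libraries. Each library was a separate unit in the class fits, in WT and in null. Same-numbered cortical and hippocampal libraries may come from the same animals, and in WT they vary together. They may therefore not be independent, and the p-values and counts of libraries may overstate the evidence. A class fit with animals as the unit was not run.

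Gabrb1 in WT was at 26.2, 33.1 and 44.2 CPM in the SST class, 14.2, 16.9 and 21.7 in PVALB and 6.53, 13.0 and 20.3 in NGFC. The SST libraries all lay above those of the other classes, which overlapped. Gabrb1 was lower in PVALB than in SST by a log2 change of -1.04 ± 0.15 (adjusted p = 1.54e-05) and lower in NGFC than in SST by -1.06 ± 0.18 (adjusted p = 8.22e-05), in 6 of 6 libraries each. Between NGFC and PVALB it stood at -0.02 ± 0.22 (adjusted p = 0.971), higher in 2 of 6 libraries.

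Gabrb2 in WT was at 5.68, 21.8 and 57.8 CPM in SST, 5.84, 32.1 and 92.2 in PVALB and 10.3, 49.1 and 147 in NGFC. These ranges overlapped widely, and the contrasts rest on differences within each library. Gabrb2 was higher in PVALB than in SST by 0.79 ± 0.14 log2 (adjusted p = 0.000123, 5 of 6 libraries) and higher in NGFC than in SST by 1.31 ± 0.15 (adjusted p = 4.25e-07, 6 of 6). Both calls ended without the library block, where the changes were 0.76 and 1.39. Between NGFC and PVALB Gabrb2 stood at 0.52 ± 0.16 (adjusted p = 0.0133, higher in 5 of 6) and was not called, but it was called without replicate 1 of WT cortex (0.58), with no filter on low counts (0.50) and with version 3 libraries only (0.58).

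Gabrg1 in WT was at 18.0, 30.5 and 74.9 CPM in SST, 0, 4.71 and 7.98 in PVALB and 0, 2.61 and 12.9 in NGFC. Every SST library lay above every library of the other classes. Gabrg1 was lower in PVALB than in SST by a log2 change of -2.72 ± 0.22 (adjusted p = 8.98e-09) and lower in NGFC than in SST by -3.07 ± 0.27 (adjusted p = 1.58e-08), in 6 of 6 libraries each. Because TH cells and the Chodl subtype are rich in Gabrg1, the SST class was also taken without them, a choice made after seeing the data. The changes were then -1.31 ± 0.29 and -2.37, both still called. The SST cells left ran from 0.966 to 70.4 CPM over the WT libraries and overlapped both other classes. Every cortical library of these cells lay below every hippocampal one. Between NGFC and PVALB, Gabrg1 stood at -0.36 ± 0.41 (adjusted p = 0.557), lower in 4 of 6 libraries.

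Gabrg3 in WT was at 50.8, 63.7 and 77.5 CPM in SST, 105, 136 and 209 in PVALB and 163, 306 and 382 in NGFC. SST was lowest with no overlap, while PVALB and NGFC overlapped through replicate 1 of the hippocampus. Gabrg3 was higher in PVALB than in SST by 1.15 ± 0.15 log2 (adjusted p = 4.94e-06), higher in NGFC than in SST by 2.19 ± 0.15 (adjusted p = 3.16e-10) and higher in NGFC than in PVALB by 1.04 ± 0.15 (adjusted p = 1.84e-05), each in 6 of 6 libraries.

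Gabbr1 in WT was at 464, 571 and 653 CPM in SST, 356, 419.7 and 499 in PVALB and 385, 509 and 555 in NGFC. The class ranges overlapped. Gabbr1 was lower in PVALB than in SST by a log2 change of -0.41 ± 0.05 (adjusted p = 3.60e-06) and higher in NGFC than in PVALB by 0.23 ± 0.06 (adjusted p = 0.00314), in 6 of 6 libraries each. The first call ended without the library block (-0.41). The second ended without the library block (0.23) and when replicate 1 or 2 of WT cortex (0.21 and 0.22) or replicate 2 or 3 of WT hippocampus (0.22 each) was left out. It also ended with no filter on low counts and with version 3 libraries only (0.21 each). Between NGFC and SST it stood at -0.18 ± 0.05 (adjusted p = 0.01005), lower in 6 of 6 libraries and not called. It was called by DESeq2, with library-size scaling, at resolutions 0.6 and 1.4, with the stricter cell filter, and with TH cells, or TH and Chodl cells, left out of SST.

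Gabbr2 in WT was at 99.5, 183 and 210.1 CPM in SST, 125.5, 266 and 306 in PVALB and 147, 422 and 435 in NGFC. Replicate 1 was lowest in every class and region, and the ranges overlapped through it. Gabbr2 was higher in PVALB than in SST by 0.52 ± 0.08 log2 (adjusted p = 2.40e-05), higher in NGFC than in SST by 1.06 ± 0.08 (adjusted p = 9.67e-10) and higher in NGFC than in PVALB by 0.54 ± 0.08 (adjusted p = 2.27e-05), each in 6 of 6 libraries. Both calls that involve PVALB ended without the library block, where the changes were 0.53 and 0.55.

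The Grin1-null libraries, which the WT fit did not use, gave the same contrasts in other animals. Of the 6 genes, 3 passed between PVALB and SST (13.5% of all genes), 4 between NGFC and SST (17.4%) and 0 between NGFC and PVALB (18.5%) in edgeR, where 4 had an unadjusted p under 0.05 (4081 of all 9886 genes) and DESeq2 called 1 (1889 of all). Without replicate 2 of null hippocampus the background counts of 1339, 1723 and 1824 genes were 573, 687 and 506. In the null SST class Gabrg1 was at 3.31 and 78.5 CPM in cortex and 32.7 and 58.9 in hippocampus, against 0, 5.40, 12.8 and 12.4 CPM in PVALB. Replicate 1 of the null cortex was far below the other SST libraries. Gabrg1 was lower in PVALB by a log2 change of -2.79 ± 0.33 (adjusted p = 8.40e-05, 4 of 4 libraries) and lower in NGFC by -3.84 ± 0.38 (adjusted p = 1.13e-05, 3 of 3 libraries). Over the alternatives the first change ran from -3.38, without replicate 2 of null hippocampus, to -1.71 ± 0.25, without TH cells and the Chodl subtype (still called). Its call ended without the library block (-2.46).

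In the null SST class Gabrg3 was at 57.3 and 81.0 CPM in cortex and 62.9 and 57.1 in hippocampus, against 122, 141, 188 and 167 in PVALB. In null NGFC it was at 298 CPM in cortex and 151 and 270.04 in hippocampus. Both other classes lay wholly above SST. Gabrg3 was higher in PVALB than in SST by 1.22 ± 0.19 log2 (adjusted p = 0.000643, 4 of 4 libraries) and higher in NGFC than in SST by 1.85 ± 0.20 (adjusted p = 1.95e-05, 3 of 3).

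Gabbr2 in the null SST class was at 171 and 131 CPM in cortex and 96.4 and 141 in hippocampus, against 190.4, 201, 175 and 217 in PVALB and 328, 153 and 336 in NGFC. PVALB lay above SST in every library, and NGFC overlapped both. Gabbr2 was higher in PVALB than in SST by 0.56 ± 0.13 log2 (adjusted p = 0.00835, 4 of 4 libraries) and higher in NGFC than in SST by 1.09 ± 0.14 (adjusted p = 8.62e-05, 3 of 3). The first of these calls ended without replicate 2 of null cortex (0.56) or replicate 2 of null hippocampus (0.53), at resolution 0.6 (0.57), with the stricter cell filter (0.55), and, chosen after seeing the data, without the Chodl subtype (0.42) or without it and TH cells (0.50). Both calls ended without the library block, where the changes were 0.53 and 0.99.

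Gabrb2 in the null NGFC class was at 60.8 CPM in cortex and 25.5 and 54.6 in hippocampus, against 11.0, 24.6, 13.9 and 22.7 in SST. NGFC lay above SST throughout. Gabrb2 was higher in NGFC than in SST by 1.26 ± 0.16 log2 (adjusted p = 8.61e-05, 3 of 3 libraries), a call that ended without replicate 2 of null hippocampus (1.26) and without the library block (1.27). Gabrb1 in the null PVALB class was at 10.8, 21.6, 17.0 and 23.8 CPM against 45.2, 44.8, 34.3 and 32.7 in SST, with no overlap. Its log2 change of -0.85 ± 0.21 (adjusted p = 0.0111, lower in 4 of 4) was not called. It was called with no filter on low counts, at resolutions 0.6 and 1.4, with the stricter cell filter, with doublets removed and with TH cells left out of SST. Gabbr1 between null PVALB and SST stood at -0.24 ± 0.07 (adjusted p = 0.0278, lower in 4 of 4) and was called by DESeq2 (-0.26) but not by edgeR. Gabrb2 between null PVALB and SST stood at 0.63 ± 0.16 (adjusted p = 0.0132, higher in 3 of 4), and Gabrb1 between null NGFC and SST at -0.87 ± 0.23 (adjusted p = 0.0126, lower in 3 of 3), both called in WT and not in null. With no filter on low counts both were called in null (0.61 and -0.90). Gabrb2 was also called there with TH cells left out of SST (0.88). In the null NGFC and PVALB comparison, leaving out replicate 1 of null hippocampus gave calls for Gabrg3 (0.89) and Gabbr2 (0.72), leaving out replicate 1 of null cortex gave one for Gabrb2 (0.68), and leaving out replicate 2 of null cortex gave one for Gabrg1 (-1.28). With no filter on low counts all 4 were called, and Gabbr2 was also called by DESeq2, with doublets removed and with version 3 libraries only. The differences between WT and null class contrasts were not tested.

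**Figure D3:**
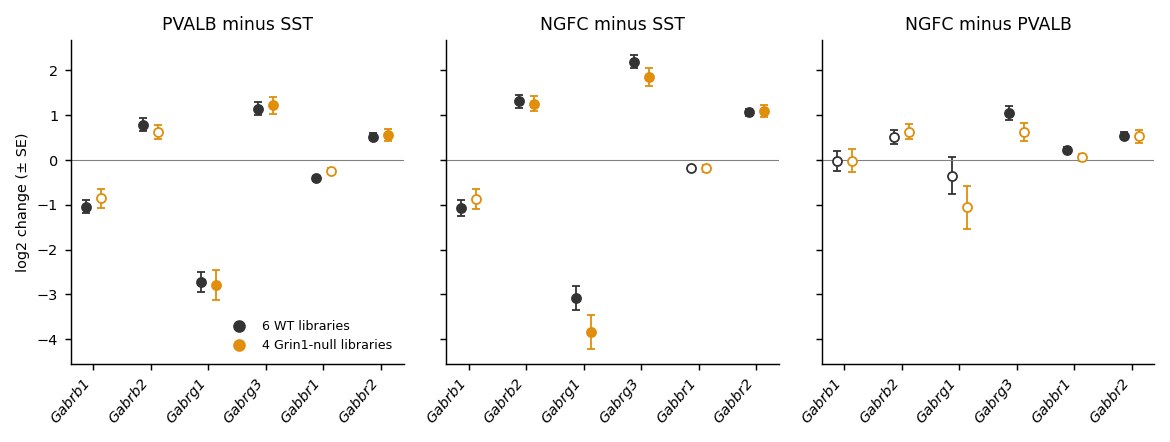
Log2 change of each gene between interneuron classes (vertical axis) with its standard error, in WT (dark, 6 libraries) and Grin1-null (orange, 4 libraries, 3 of them with NGFC), with filled points for called changes. Gabrg1 lies at -2.72 and -3.07 against SST in WT, and Gabrg3 at 1.15 and 2.19.

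The region contrast asks whether a class differs between cortex and hippocampus in WT. edgeR called 0 of the 6 genes in the SST class (0.0418% of all genes passed), 0 of 5 tested in the PVALB class (0.0342%) and 0 of 4 in the NGFC class (0%). In all 3 classes 0 of them had an unadjusted p under 0.05, and DESeq2 called 0. Same-numbered libraries of the 2 regions vary together, and with replicate as a block 393, 45 and 10 of all genes were called in SST, PVALB and NGFC, with none of the subunit genes among them. In SST, Gabrg1 showed the widest separation, at 18.0, 37.3 and 20.7 CPM in cortex and 74.9, 51.4 and 23.6 in hippocampus. Hippocampus was higher in each replicate, though replicate 3 fell within the range of cortex. The log2 change was 0.92 ± 0.44 (adjusted p = 0.733, higher in 3 of 3 replicates) and 0.83 ± 0.27 with replicate as a block (adjusted p = 0.0864). Over all alternatives the adjusted p of this contrast lay between 0.0864 and 0.9995.

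The SST class changes in make-up between regions, with 33, 134 and 60 Chodl cells in WT cortex against 1, 21 and 1 in hippocampus. TH cells numbered 102, 122 and 202 in WT cortex against 44, 9 and 61 in hippocampus. Of the SST clusters, cluster 8 held 739 of 3433 cells of the class in WT cortex and 120 of 1480 in hippocampus, and cluster 7 held 429 and 644. Cluster 7 was shallow, with a median of 1377 UMIs, and 46.4% of all its cells came from replicate 2 of WT hippocampus. Its part in the region values was not tested. In SST cells without TH and Chodl cells, a choice made after seeing the values, Gabrg1 was at 0.966, 9.79 and 5.01 CPM in WT cortex and 70.4, 42.5 and 13.4 in WT hippocampus. In null libraries it was at 0 and 11.7 CPM in cortex and 30.01 and 54.2 in hippocampus. The regions did not overlap in either genotype. The WT log2 change was then 2.94 ± 0.72 (adjusted p = 0.128, higher in 3 of 3 replicates) and was not called. In cluster 3, the largest SST cluster, Gabrg1 was at 0, 13.5 and 8.74 CPM in WT cortex and 130.6, 50.7 and 32.0 in WT hippocampus. With version 3 libraries only, the class change was 0.32.

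Markers of astrocytes and OPCs moved with region in the same SST class. The summed level of 5 astrocyte markers, led by Aldoc or Slc1a2, was 55.7, 50.9 and 51.6 CPM in WT cortex and 77.0, 169.9 and 106 in WT hippocampus, with 1 marker at 0 in replicate 1 of cortex and 2 in replicate 1 of hippocampus. The summed level of 4 OPC markers, led by Olig1, was 9.85, 15.6 and 9.56 CPM against 40.3, 68.6 and 28.6, with 1 marker at 0 in replicate 1 of each region and in replicate 3 of hippocampus. Their part in the Gabrg1 values was not tested. Among the other genes, the SST log2 changes ran from -0.39 (Gabrb1) to 0.55 (Gabrb2), the PVALB changes from -0.27 (Gabbr2) to 0.48 (Gabrg3), and the NGFC changes from -0.35 (Gabrg3) to 0.31 (Gabrb2). Within same-numbered replicates, Gabrb2 in SST and Gabrg3 in PVALB were higher in hippocampus each time. Gabbr2 in PVALB and Gabrg3 in NGFC were lower there each time. Gabrb2 in SST of replicate 3 differed little, at 22.5 CPM in hippocampus and 21.0 in cortex. With 3 pairs, the same direction each time can arise by chance, and it was not tested. The remaining changes of these genes went both ways, and none was called with replicate as a block.

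The genotype contrasts ask what loss of Grin1 did to the subunits in each class and region. In each of the 6 contrasts edgeR called 0 of the 6 genes (0% of all genes passed in each), 0 of them had an unadjusted p under 0.05, and DESeq2 called 0. Over all genes, edgeR had 274 and 482 at an unadjusted p under 0.05 in SST of cortex and hippocampus, 342 and 312 in PVALB, and 145 and 324 in NGFC. In SST, Gabrg1 was at 3.31 and 78.5 CPM in null cortex against 18.0, 37.3 and 20.7 in WT cortex. The null libraries lay on both sides of WT. Its log2 change of 0.85 ± 0.70 (adjusted p = 0.9995, higher in 1 of 2 null libraries) became -2.89 without replicate 2 of null cortex and 1.62 without replicate 1 of null cortex. Chodl and TH cells numbered 3 and 10 of 112 SST cells in null replicate 1 and 147 and 178 of 723 in null replicate 2. In WT cortex they numbered 33 and 102 of 628, 134 and 122 of 1182, and 60 and 202 of 1623. Without these cells, a choice made after seeing the data, Gabrg1 was at 0 and 11.7 CPM in null against 0.966, 9.79 and 5.01 in WT, and the log2 change was 0.56 ± 0.87 (adjusted p = 0.9996). The astrocyte marker sum in cortical SST was 102.5 and 100.5 CPM in null against 55.7, 50.9 and 51.6 in WT, and its part in these values was not tested.

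Gabbr2 had a negative log2 change in all 6 genotype contrasts, from -0.46 in NGFC of hippocampus to -0.18 in PVALB of hippocampus, none of them called, and the last of these was 0.00 without replicate 2 of WT hippocampus. The first ran from -1.08 to -0.05 with 1 library left out. Contrasts of a region share libraries, and chemistry was not in the main fit. In replicate 1, the other chemistry, Gabbr2 was higher in null SST of cortex (171 against 143 CPM in WT). It was also higher there in null PVALB (175 against 125.5) and NGFC (153 against 147) of hippocampus. In PVALB of cortex and SST of hippocampus it was lower. In replicate 2 it was lower in null in every class and region. Cluster 17 held 551 of the WT hippocampal neurogliaform cells and cluster 4 held 491, against 30 and 708 of the null ones. Most cells of cluster 17 came from replicate 2 of the WT hippocampus, the shallowest library, so this split rests largely on 1 library. Its part in the Gabbr2 values was not tested. In PVALB of cortex Gabbr2 was at 190.4 and 201 CPM in null and 203, 306 and 297 in WT. Both null libraries lay just under the lowest WT library. The log2 change was -0.44 ± 0.33 (adjusted p = 0.9999, lower in 2 of 2 null libraries). In SST of hippocampus Gabbr2 was at 96.4 and 141 CPM in null and 99.5, 197 and 179 in WT, which overlapped. Gabbr1 was at 424 and 442 CPM in PVALB of null cortex against 413, 437 and 356 in WT, and at 473 and 515 in null hippocampus against 499, 365 and 426. Its log2 changes across the 6 contrasts ran from -0.09 to 0.20.

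Gabrb1 ran from 0.07 to 0.65 in the 6 contrasts, with the largest value in NGFC of hippocampus, where it was at 31.1 and 20.1 CPM in null and 12.9, 13.1 and 19.9 in WT. Both null libraries were above the WT ones, and the change of 0.65 ± 0.46 was not called (adjusted p = 0.953, higher in 2 of 2 null libraries). It ran from 0.31 to 1.04 with 1 library left out. Gabrb2 ran from -0.74 to 0.10, and Gabrg3 from -0.30 to 0.24. The 0.10 is from NGFC of cortex, whose null library is a replicate 2, and it was -0.78 with replicate as a block. Gabrg1 in PVALB of hippocampus was at 12.8 and 12.4 CPM in null and 2.92, 7.09 and 7.98 in WT, without overlap, and its log2 change of 0.91 ± 0.76 was not called (adjusted p = 0.9999, higher in 2 of 2 null libraries). Standard errors of these changes ran from 0.24 to 2.002 in log2 units. In NGFC of cortex the null group is a single library, assumed to vary like the others.

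The test of whether the genotype change differed between regions also called 0 of the 6 genes in each class with edgeR (0% of all genes passed), with 0 of them at an unadjusted p under 0.05 and 0 by DESeq2. The difference ran from -0.91 (Gabrg1) to 0.14 (Gabbr1) in SST, from -0.71 (Gabrb2) to 0.60 (Gabrg1) in PVALB and from -0.79 (Gabrb2) to 0.44 (Gabrb1) in NGFC. With 1 library left out the Gabrg1 value in PVALB ran from 0.15 to 6.73, and with replicate as a block the Gabrb2 value in NGFC was 0.33.

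Other genes of GABA signalling were read from a list of 36, of which 34 were tested in the class contrasts. The list spans other GABA-A subunits, scaffold and partner proteins, GABA-B auxiliary proteins, GABA-B effectors, and GABA synthesis and transport. In WT, 10 were called higher and 9 lower in PVALB than in SST, 11 higher and 7 lower in NGFC than in SST, and 12 higher and 8 lower in NGFC than in PVALB, where 22.5, 24.2 and 23.5% of all genes were called. In null cells the counts were 7 and 4, 10 and 6, and 8 and 11, with 13.5, 17.4 and 18.5% of all genes called. The median log2 change of the list in WT was -0.14, 0.09 and 0.02, and that of the 6 genes was 0.05, 0.44 and 0.37, against about 0 over all genes.

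Between PVALB and SST in WT the largest changes were in Ajap1, which binds GABA-B receptors (2.56 ± 0.31), the auxiliary subunit Kctd12 (-1.81 ± 0.25), the delta subunit gene Gabrd (1.77 ± 0.14) and the alpha subunit gene Gabra2 (-1.63 ± 0.17). Between NGFC and SST they were in the auxiliary subunit Kctd8 (-4.72 ± 0.22), Gabra5 (2.72 ± 0.16), the GIRK channel gene Kcnj6 (1.96 ± 0.16) and the GABA-synthesising enzyme Gad1 (1.75 ± 0.08). Between NGFC and PVALB they were in Kctd8 (-3.53 ± 0.26), Gabra5 (3.34 ± 0.21), Kctd12 (1.90 ± 0.30) and Gad2 (1.44 ± 0.07). In null cells the leading genes between PVALB and SST were Gabrd (1.66 ± 0.13), Gabra2 (-1.52 ± 0.20) and Kctd8 (-1.19 ± 0.16). Between NGFC and SST in null cells they were Kctd8 (-4.92 ± 0.25), Gabra5 (3.004 ± 0.21), Kcnj6 (1.73 ± 0.24) and Gabra3 (-1.71 ± 0.14), and between NGFC and PVALB they were Kctd8 (-3.73 ± 0.28), Gabra5 (2.68 ± 0.23), Kcnj9 (-1.75 ± 0.28) and Gad2 (1.38 ± 0.09). No gene of the list was called in the region, genotype or interaction contrasts by edgeR.

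Across the 30 named WT clusters, each gene was compared with 12261 others by Pearson correlation of log2 levels. This is a description over clusters that share libraries and differ in depth, with no test. Gabrb1 was most like Ngef (0.913), Gabra4 (0.906) and Camk2g (0.903). Genes close to Gabrb2 were Shank1 (0.951) and Gabrg3 (0.945). Gabrg1 was most like Dmd (0.796), Ankrd6 (0.789) and Col11a1 (0.778), and its values were lower than those of the other 5 genes. Genes close to Gabrg3 were Osbpl8 (0.952) and Kcnj6 (0.946). Gabbr1 was most like Rtn3 (0.920), Ubqln2 (0.913) and Faim2 (0.898), and Gabbr2 was most like Ttc3 (0.962) and Adcy1 (0.956). Among the 6 genes, Gabrb2 and Gabbr2 reached 0.937, Gabrg3 and Gabbr2 0.926, Gabbr1 and Gabbr2 0.708 and Gabrb1 and Gabrb2 0.628, while Gabrg1 stood at 0.552 with Gabrb1, 0.431 with Gabbr2, 0.338 with Gabrb2, 0.308 with Gabrg3 and 0.226 with Gabbr1.

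In the genome (GRCm38), Gabrb1 (ENSMUSG00000029212.11) lies on chromosome 5 from 71658113 to 72149037 on the plus strand and overlaps Gabra4 on the other strand. Gabrg1 (ENSMUSG00000001260.10) lies on the same chromosome from 70751047 to 70842617 on the minus strand. Gabrb2 (ENSMUSG00000007653.12) lies on chromosome 11 from 42419757 to 42629028 on the plus strand. Gabrg3 (ENSMUSG00000055026.13) lies on chromosome 7 from 56716465 to 57387188 on the minus strand and overlaps 6 non-coding or pseudogene models. Gabbr1 (ENSMUSG00000024462.17) lies on chromosome 17 from 37045966 to 37075067 on the plus strand, and Gabbr2 (ENSMUSG00000039809.10) on chromosome 4 from 46662305 to 46991873 on the minus strand.

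RefSeq promoter windows (GRCm38.p6, 250 bases before to 50 after the start) matched all 6 genes. Gabrg1 and Gabbr2 are shown because they changed in opposite directions between classes and because their windows differ most in base content. The Gabrg1 window is 38.3% GC with 3 CpG dinucleotides, at percentiles 7.45 and 23.3 of 32851 promoters, and the Gabbr2 window is 80.3% GC with 46, at percentiles 99.1 and 98.4. The medians over all promoters were 52.7% and 7. Each is written 5′ to 3′ on the gene's own strand (minus), with CpG in capitals, and spans chr5:70842568-70842867 for Gabrg1 and chr4:46991665-46991964 for Gabbr2.
Gabrg1: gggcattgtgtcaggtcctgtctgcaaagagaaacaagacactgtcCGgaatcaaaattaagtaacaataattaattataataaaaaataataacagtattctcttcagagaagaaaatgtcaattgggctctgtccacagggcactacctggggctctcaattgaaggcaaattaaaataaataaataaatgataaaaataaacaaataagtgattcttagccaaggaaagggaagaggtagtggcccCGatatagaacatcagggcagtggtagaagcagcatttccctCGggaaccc
Gabbr2: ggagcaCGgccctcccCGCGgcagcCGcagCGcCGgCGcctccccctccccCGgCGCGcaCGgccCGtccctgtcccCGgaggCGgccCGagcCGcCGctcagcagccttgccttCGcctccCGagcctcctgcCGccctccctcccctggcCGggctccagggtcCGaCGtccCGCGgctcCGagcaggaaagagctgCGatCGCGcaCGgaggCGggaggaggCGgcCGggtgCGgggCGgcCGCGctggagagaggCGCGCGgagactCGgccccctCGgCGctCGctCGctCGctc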

How the data were processed

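The deposited UMI counts, made by the authors with Cell Ranger (2.1.1 in the methods, 3.0.2 in the matrix headers) on mm10 with gene ends extended, were used as they are. The subunit genes, pathway list and markers were chosen with earlier results of these data known. The cell filter took 200 to 6000 detected genes and a mitochondrial share below 30%. Libraries were told apart by barcode suffix, and suffixes were matched to replicates by cell number. As a check of pairing, deviations from the regional mean in same-numbered WT libraries of both regions correlated at 0.430 to 0.788 across 6691 genes in SST, against at most 0.264 for other pairs. The values were 0.409 to 0.639 against at most 0.119 in PVALB, and 0.263 to 0.627 against at most 0.196 in NGFC. Genes are not independent replicates. Same-numbered libraries also share chemistry, and replicate 2 was the shallowest of WT in both regions. The check therefore cannot settle how suffixes match replicates.

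Cells were integrated and clustered in Seurat 5.3.0 (R 4.3.3; CCA on 1997 variable features, 25 dimensions, resolution 1), and clusters were named when at least 3 markers of a list reached 20 CPM. UMIs were summed per library and class (at least 10 cells) and tested in edgeR 4.0.16 (TMM, filterByExpr, quasi-likelihood), with library as a block for class contrasts. A gene was called at a Benjamini-Hochberg adjusted p under 0.01 over all genes tested and a change of 0.1 or more on the natural log scale. Adjusted p-values in the text are from edgeR. Pair shares were compared by two-sided exact permutation tests. The named genes are all 6 subunit genes, up to 4 called genes of the pathway list per contrast with the largest change, and genes among the 3 most correlated with each subunit gene. Some genes, and the oligodendrocyte marker sum, are not reported here.

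Alternatives were DESeq2 1.42.0, library-size scaling, no low-count filter, an adjusted p under 0.05, sums of at least 20 cells, resolutions 0.6 and 1.4, a stricter cell filter (at least 1000 genes, at most 10% mitochondrial UMIs), removal of 253 cells (0.966%) that Scrublet marked as doublets, the replicate block added or left out, and each library left out. Added after seeing the data were version 3 libraries only and the SST class without TH cells, the Chodl subtype or both. Doublets were kept otherwise, and unnamed clusters were left out of the tests. Python 3.11.15 with scanpy 1.11.5 and scipy 1.17.1 was used for the rest. Library depth was 1488601 to 47338167 UMIs, and exact intervals and limits for counts of 0 cover counting error only.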

Additional observations from a re-analysis of the deposited data

How the results depend on the processing

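The class contrasts gave 21 called changes of the 6 genes. Under the alternatives they had 376 values, of which 353 kept both call and direction and 0 took the opposite sign. All alternatives kept 11 of the 21. The Gabrg3 calls and the Gabrb1 calls kept theirs, and each of the 10 changes not kept throughout lost its call without the library block. Values that changed by setting follow, and the cause of each change was not tested. None of the log2 values that turned sign was a called change. Taking version 3 libraries only, or leaving TH cells or the Chodl subtype out of the SST class, was chosen after seeing the data.

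With the library block left out, subunit genes called numbered 3 for PVALB against SST in WT, 1 for NGFC against PVALB in WT, 1 for PVALB against SST in null and 2 for NGFC against SST in null. Genes called numbered 492 for PVALB against SST in WT, 913 for NGFC against SST in WT and 745 for NGFC against PVALB in WT. Genes called numbered 330 for PVALB against SST in null, 774 for NGFC against SST in null and 604 for NGFC against PVALB in null. Gabrb1 (0.045, NGFC against PVALB in null) took the opposite sign. With clustering at resolution 0.6, the sign turned for Gabrb1 (0.00049, NGFC against PVALB in WT), Gabrg1 (0.27, NGFC against PVALB in WT), Gabrb1 (0.085, NGFC against PVALB in null) and Gabrb2 (0.037, genotype in cortical SST). Genes called numbered 1 for genotype in cortical PVALB. With clustering at resolution 1.4, the sign turned for Gabrb1 (0.011, NGFC against PVALB in WT), Gabrg1 (0.076, NGFC against PVALB in WT), Gabrb1 (0.090, NGFC against PVALB in null) and Gabrb1 (0.0048, region in PVALB). Genes called numbered 1 for genotype in cortical PVALB. With doublets removed, the sign turned for Gabrb1 (0.0089, NGFC against PVALB in WT) and Gabrb1 (0.066, NGFC against PVALB in null). Subunit genes called numbered 1 for NGFC against PVALB in null. With version 3 libraries only, the sign turned for Gabrb1 (0.14, NGFC against PVALB in WT), Gabbr1 (-0.0039, region in SST), Gabbr1 (0.066, genotype in cortical SST), Gabrg1 (0.65, genotype in hippocampal SST) and Gabbr2 (0.15, the interaction in SST). Gabrg3 (-0.26, genotype in hippocampal PVALB), Gabbr2 (0.052, region in NGFC), Gabrb2 (-0.26, genotype in cortical NGFC), Gabrg3 (0.051, the interaction in NGFC) and Gabbr1 (0.036, the interaction in NGFC) took the opposite sign. Genes called numbered 661 for PVALB against SST in null, 1064 for NGFC against PVALB in null, 0 for region in SST and 0 for region in PVALB. Subunit genes called numbered 1 for NGFC against PVALB in null. With an adjusted p under 0.05, subunit genes called numbered 6 for PVALB against SST in null and 3 for NGFC against PVALB in null. Genes called numbered 2291 for PVALB against SST in null, 2736 for NGFC against SST in null, 3081 for NGFC against PVALB in null, 32 for region in SST and 1 for genotype in cortical SST. Genes called numbered 1 for genotype in hippocampal SST, 10 for region in PVALB, 9 for genotype in cortical PVALB and 1 for region in NGFC. With no filter on low counts, subunit genes called numbered 5 for PVALB against SST in null and 4 for NGFC against PVALB in null. Genes called numbered 2257 for PVALB against SST in null, 2825 for NGFC against SST in null, 157 for region in SST, 20 for genotype in cortical SST and 20 for genotype in hippocampal SST. Genes called numbered 2 for the interaction in SST, 88 for region in PVALB, 58 for genotype in cortical PVALB, 15 for genotype in hippocampal PVALB and 3 for the interaction in PVALB. Genes called numbered 33 for region in NGFC, 4 for genotype in cortical NGFC and 22 for genotype in hippocampal NGFC. Gabbr1 (-0.033, region in SST) and Gabrg3 (0.016, the interaction in PVALB) took the opposite sign. With TH cells out of the SST class, subunit genes called numbered 5 for PVALB against SST in null. Genes called numbered 8 for region in SST. Gabrg3 (-0.024, genotype in cortical SST) and Gabrg1 (0.045, genotype in hippocampal SST) took the opposite sign. With DESeq2, subunit genes called numbered 1 for NGFC against PVALB in null, where 1889 of all genes were called. Gabrb1 (0.076, NGFC against PVALB in null), Gabrg3 (-0.011, genotype in hippocampal PVALB) and Gabbr1 (-0.00082, genotype in hippocampal NGFC) took the opposite sign. Genes called numbered 144 for region in SST, 2 for genotype in cortical SST, 2 for genotype in hippocampal SST and 24 for region in PVALB. Genes called numbered 12 for genotype in cortical PVALB, 1 for genotype in hippocampal PVALB, 6 for region in NGFC and 1 for genotype in hippocampal NGFC. With the stricter cell filter, the sign turned for Gabrb1 (0.026, NGFC against PVALB in null) and Gabrb2 (0.058, genotype in cortical SST). With replicate number as a block, genes called numbered 393 for region in SST, 45 for region in PVALB, 4 for genotype in cortical PVALB and 10 for region in NGFC. Gabrb2 (-0.070, region in PVALB), Gabrb2 (-0.78, genotype in cortical NGFC) and Gabbr1 (-0.041, genotype in hippocampal NGFC) took the opposite sign. Gabrb2 (0.33, the interaction in NGFC), Gabrg3 (0.23, the interaction in NGFC) and Gabbr2 (0.29, the interaction in NGFC) took the opposite sign. With both TH cells and the Chodl subtype out of the SST class, genes called numbered 13 for region in SST. Gabrg3 (-0.0060, region in SST), Gabrb2 (0.037, genotype in cortical SST), Gabrg1 (0.075, genotype in hippocampal SST) and Gabrb1 (0.057, the interaction in SST) took the opposite sign. With the Chodl subtype out of the SST class, the sign turned for Gabrb2 (0.14, genotype in cortical SST).

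With 1 library left out, these results changed sign, call or size (log2 changes and share differences by more than 1.5-fold), with the lowest and highest value of each given. Genes called ran from 1417 to 2484 for PVALB against SST in WT, from 573 to 1221 for PVALB against SST in null, from 687 to 1934 for NGFC against SST in null and from 506 to 1818 for NGFC against PVALB in null. Genes called ran from 0 to 5 for region in SST, at 0 throughout for region in PVALB and from 0 to 5 for genotype in cortical PVALB. Gabrb1 ran from -0.22 to 0.083 for NGFC against PVALB in WT, from -0.16 to 0.22 for NGFC against PVALB in null, from -0.18 to 0.015 for the interaction in SST and from -0.18 to 0.046 for region in PVALB. Gabrb1 ran from -0.67 to 0.24 for genotype in cortical PVALB, from -0.0089 to 1.01 for the interaction in PVALB, from -0.0040 to 0.92 for genotype in cortical NGFC and from -0.27 to 0.81 for the interaction in NGFC. Gabrb1 ran from 0.15 to 0.34 for genotype in cortical SST, from 0.31 to 1.04 for genotype in hippocampal NGFC, from 0.058 to 0.46 for genotype in hippocampal PVALB and from 0.060 to 0.25 for genotype in hippocampal SST. Gabrb2 ran from 0.43 to 0.58 for NGFC against PVALB in WT, from 1.23 to 1.30 for NGFC against SST in null, from 0.61 to 0.69 for NGFC against PVALB in null and from -0.40 to 1.03 for region in SST. Gabrb2 ran from -0.79 to 0.48 for genotype in cortical SST, from -1.04 to 0.33 for genotype in hippocampal SST, from -1.10 to 0.31 for the interaction in SST and from -1.15 to 0.51 for region in PVALB. Gabrb2 ran from -0.27 to 0.27 for genotype in cortical PVALB, from -1.96 to 0.53 for genotype in hippocampal PVALB, from -1.92 to 0.57 for the interaction in PVALB and from -1.03 to 0.80 for region in NGFC. Gabrb2 ran from -0.27 to 0.57 for genotype in cortical NGFC, from -1.35 to 0.61 for genotype in hippocampal NGFC and from -1.46 to 0.51 for the interaction in NGFC. Gabbr1 ran from 0.21 to 0.26 for NGFC against PVALB in WT, from -0.077 to 0.13 for region in SST, from -0.16 to 0.0075 for genotype in cortical SST and from -0.061 to 0.15 for genotype in hippocampal SST. Gabbr1 ran from -0.024 to 0.18 for region in PVALB, from -0.0078 to 0.18 for the interaction in PVALB, from -0.010 to 0.20 for region in NGFC and from -0.032 to 0.16 for genotype in cortical NGFC. Gabbr1 ran from -0.12 to 0.12 for genotype in hippocampal NGFC, from -0.21 to 0.036 for the interaction in NGFC, from 0.030 to 0.14 for NGFC against PVALB in null and from 0.014 to 0.24 for the interaction in SST. Gabbr1 ran from 0.056 to 0.16 for genotype in cortical PVALB and from 0.12 to 0.31 for genotype in hippocampal PVALB. Gabbr2 ran from 0.49 to 0.64 for PVALB against SST in null, from 0.46 to 0.72 for NGFC against PVALB in null, from -0.45 to 0.0093 for region in SST and from -0.39 to 0.089 for the interaction in SST. Gabbr2 ran from -0.45 to 0.0028 for genotype in hippocampal PVALB, from -0.013 to 0.44 for the interaction in PVALB, from -0.39 to 0.24 for region in NGFC and from -0.89 to 0.16 for the interaction in NGFC. Gabbr2 ran from -0.46 to -0.017 for region in PVALB, from -0.38 to -0.092 for genotype in cortical NGFC, from -0.47 to -0.049 for genotype in cortical SST and from -1.08 to -0.047 for genotype in hippocampal NGFC. Gabbr2 ran from -0.64 to -0.18 for genotype in hippocampal SST. Subunit genes called ran from 0 to 2 for NGFC against PVALB in null. Gabrg1 ran from -1.28 to -1.002 for NGFC against PVALB in null, from -2.89 to 1.62 for genotype in cortical SST, from -0.52 to 0.35 for genotype in hippocampal SST and from -1.67 to 2.83 for the interaction in SST. Gabrg1 ran from -5.82 to 0.76 for genotype in cortical PVALB, from -0.030 to 0.77 for the interaction in NGFC, from 0.51 to 1.27 for region in SST and from -0.73 to -0.21 for NGFC against PVALB in WT. Gabrg1 ran from 0.15 to 6.73 for the interaction in PVALB and from -1.01 to -0.21 for genotype in cortical NGFC. Gabrg3 ran from 0.46 to 0.89 for NGFC against PVALB in null, from -0.027 to 0.43 for genotype in cortical SST, from -0.19 to 0.18 for genotype in hippocampal PVALB and from -0.29 to 0.084 for the interaction in PVALB. Gabrg3 ran from -0.73 to 0.0084 for genotype in hippocampal NGFC, from -0.52 to 0.22 for the interaction in NGFC, from -0.55 to -0.11 for region in NGFC and from 0.31 to 0.67 for region in PVALB. Gabrg3 ran from 0.090 to 0.29 for region in SST, from -0.62 to -0.18 for the interaction in SST, from -0.29 to -0.11 for genotype in cortical NGFC and from 0.00053 to 0.22 for genotype in cortical PVALB. Gabrg3 ran from -0.31 to -0.077 for genotype in hippocampal SST. The difference in Gabbr1 share ran from -4.12 to 11.2 for region in NGFC, from -0.382 to 10.8 for region in PVALB, from -1.13 to 7.06 for region in SST and from -1.12 to 5.38 for genotype in cortical SST (percentage points). The difference in Gabbr1 share ran from 0.509 to 9.48 for genotype in cortical NGFC, from 0.992 to 16.4 for genotype in hippocampal NGFC, from 0.804 to 12.0 for genotype in hippocampal PVALB and from 1.399 to 9.59 for genotype in hippocampal SST (percentage points). The difference in Gabrb1 share ran from -0.708 to 23.0 for region in NGFC, from -7.05 to 2.59 for genotype in cortical NGFC and from -5.35 to 22.8 for genotype in hippocampal NGFC (percentage points). The difference in Gabrb1 share ran from -7.18 to 25.04 for region in PVALB, from -11.0 to 2.76 for genotype in cortical PVALB and from -7.83 to 24.4 for genotype in hippocampal PVALB (percentage points). The difference in Gabrb1 share ran from -21.3 to 0.237 for region in SST, from -4.17 to 12.9 for genotype in cortical SST and from -3.88 to 17.7 for genotype in hippocampal SST (percentage points). The difference in Gabrg1 share ran from -0.233 to 0.0999 for genotype in cortical NGFC, from -1.68 to 1.49 for genotype in hippocampal NGFC, from -0.0624 to 1.82 for region in PVALB and from -2.20 to 1.49 for genotype in cortical PVALB (percentage points). The difference in Gabrg1 share ran from -23.9 to 19.9 for genotype in cortical SST, from -6.05 to 10.6 for genotype in hippocampal SST, from 0.857 to 4.03 for region in NGFC and from 5.87 to 19.2 for region in SST (percentage points).

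Some alternatives gave no value. Without replicate 2 of the null cortex no cortical null NGFC library was left, and genes under the count filter gave none in that fit. Where a group kept 1 library, it was assumed to vary like the others. Low depth limited single-cell detection in glutamatergic cells, microglia and OPCs of WT, and Gabrg1 in PVALB and neurogliaform cells rests on few UMIs.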

Other observations

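Among the 4 clusters that no marker list named, cluster 25 (395 cells, with Oxt as its leading gene) held 54.1 CPM of Gabrb1, 5.74 of Gabrb2, 61.5 of Gabrg1, 51.7 of Gabrg3, 479 of Gabbr1 and 113 of Gabbr2 in pooled WT cells. Its null cells held 65.3, 10.5, 107, 21.1, 548 and 80.8 CPM in the same order. Cluster 19 (528 cells, median 658 UMIs) held 83.9 CPM of Gabrb2, 220.5 of Gabrg3, 311 of Gabbr1 and 87.0 of Gabbr2 in WT cells. Clusters 30 (160 cells) and 33 (63 cells) held no Gabrg1 UMI in either genotype, and Gabbr1 stood at 175 and 490.3 CPM in their WT cells. These cells were shallow, with medians of 1343 and 590 UMIs, and cluster 33 had only 6 null cells. In NGFC, cluster 17 held 138 CPM of Gabrb2 in WT cells and cluster 4 held 39.5, and 85.8% of all 599 cells of cluster 17 came from replicate 2 of the WT hippocampus.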
